A study of Mus musculus with 2 samples.

Results

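The genes described here encode the nuclear subunits of the mitochondrial respiratory chain and the ATP synthase, together with some of their assembly factors. They were taken as every gene whose annotated symbol begins with Nduf followed by a, b, c, s or v, with Uqcr, with Cox and a digit between 4 and 8, or with Atp5, plus Sdha, Sdhb, Sdhc and Sdhd. This gave 89 of the 19937 genes with a probe set annotated to 1 symbol. Complex I had 43 of them, complex II 4, complex III 8, complex IV 17 and complex V 17.

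RNA came from TR1 cells, interleukin-10-producing CD4 T cells, of the small intestine. The impaired sample came from mice labelled CD4-DNIL-10R transgenic, a name that stands for a dominant-negative form of the IL-10 receptor driven by Cd4 sequences, and the other sample came from mice labelled wildtype for IL10RA. Mice of both genotypes received 15 μg of anti-CD3 antibody (clone 2C11) by intraperitoneal injection, 2 times with a day between, and were killed 4 or 48 hours after the second dose; which time applies to which sample, the strain, age and number of the mice and the sort of the cells are not stated in the labels. Each genotype was measured on 1 array, so no value below has a replicate error, no difference was tested, and differences are described by their size alone.

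The respiratory chain sits in the inner mitochondrial membrane. Complexes I and II feed electrons from NADH and succinate into ubiquinone, complex III passes them to cytochrome c and complex IV to oxygen, and the proton gradient built by complexes I, III and IV drives ATP synthesis by complex V. All complexes but the second combine subunits of nuclear genes with subunits of mitochondrial DNA. In T cells the chain is known to be needed for activation and for long-lived memory, next to glycolysis.

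Il10ra, the gene of the receptor chain named in the genotype, was at 12.30 in impaired and 9.92 in wildtype cells, on the log2 scale that all levels below use; whether its probe set detects the transgene is not known. Il10 and Lag3, by which TR1 cells are recognised and which were chosen after their values were seen, were at 12.92 and 11.36 in the impaired sample, against 12.94 and 11.41 in the wildtype sample. The 9 T cell genes had a median log2 difference (impaired minus wildtype, as throughout) of -0.01. Genes of most other cell types listed differed more. All 14 enterocyte genes were above 0, with a median of 0.90 and a summed linear signal of 35269 in the impaired sample and 19741 in the wildtype sample. All 9 goblet and Paneth cell genes (median 0.89) and all 7 neutrophil genes (1.97) that passed the floor described next were above 0. So were all 5 genes of the B cell list past it (0.99). Of these, Cd74, H2-Ab1 and H2-Eb1 serve class II presentation and are not particular to B cells, while Cd79b and Blnk differed by 0.60 and 0.99. The 3 macrophage genes past the floor were above 0 with a median of 0.18 (0.09 to 1.78). All 6 pancreatic acinar genes were below 0 (median -1.58). Of all genes past the floor 49.4% were above 0 and 50.2% below. Intestinal epithelium is itself rich in mitochondria, and the part of these marker shifts in the differences below was not tested. On such bulk RNA, fewer cells of a type and less RNA per cell cannot be told apart.

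Most respiratory chain and ATP synthase genes were nearly equal in the 2 samples. Medians and counts use the 82 of the 89 genes whose mean of both samples was 6.91 or higher, which is the median of that mean across probe sets, a floor that does not depend on the direction of a difference. Of these 82, 55 (67.1%) differed by less than 0.2, beside 57.9% of all genes past the floor. Of the 82, 38 were above 0 and 44 below, against 49.4% above and 50.2% below among all 10754 genes. Their median was -0.04, beside -0.002 over all genes, and 0.001 beside 0.02 after the differences were centred by intensity. Of the members 0 reached a 2-fold difference, as 1.57% of all genes did (1.41% brighter and 0.158% dimmer). At 1.5-fold (0.585) 4 members differed, against 6.81% of all genes: 1 was brighter in the impaired sample, against 5.55%, and 3 were dimmer, against 1.26%. The share brighter was thus below the background and the share dimmer above it, on counts of 1 and 3 genes.

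**Figure D1:**
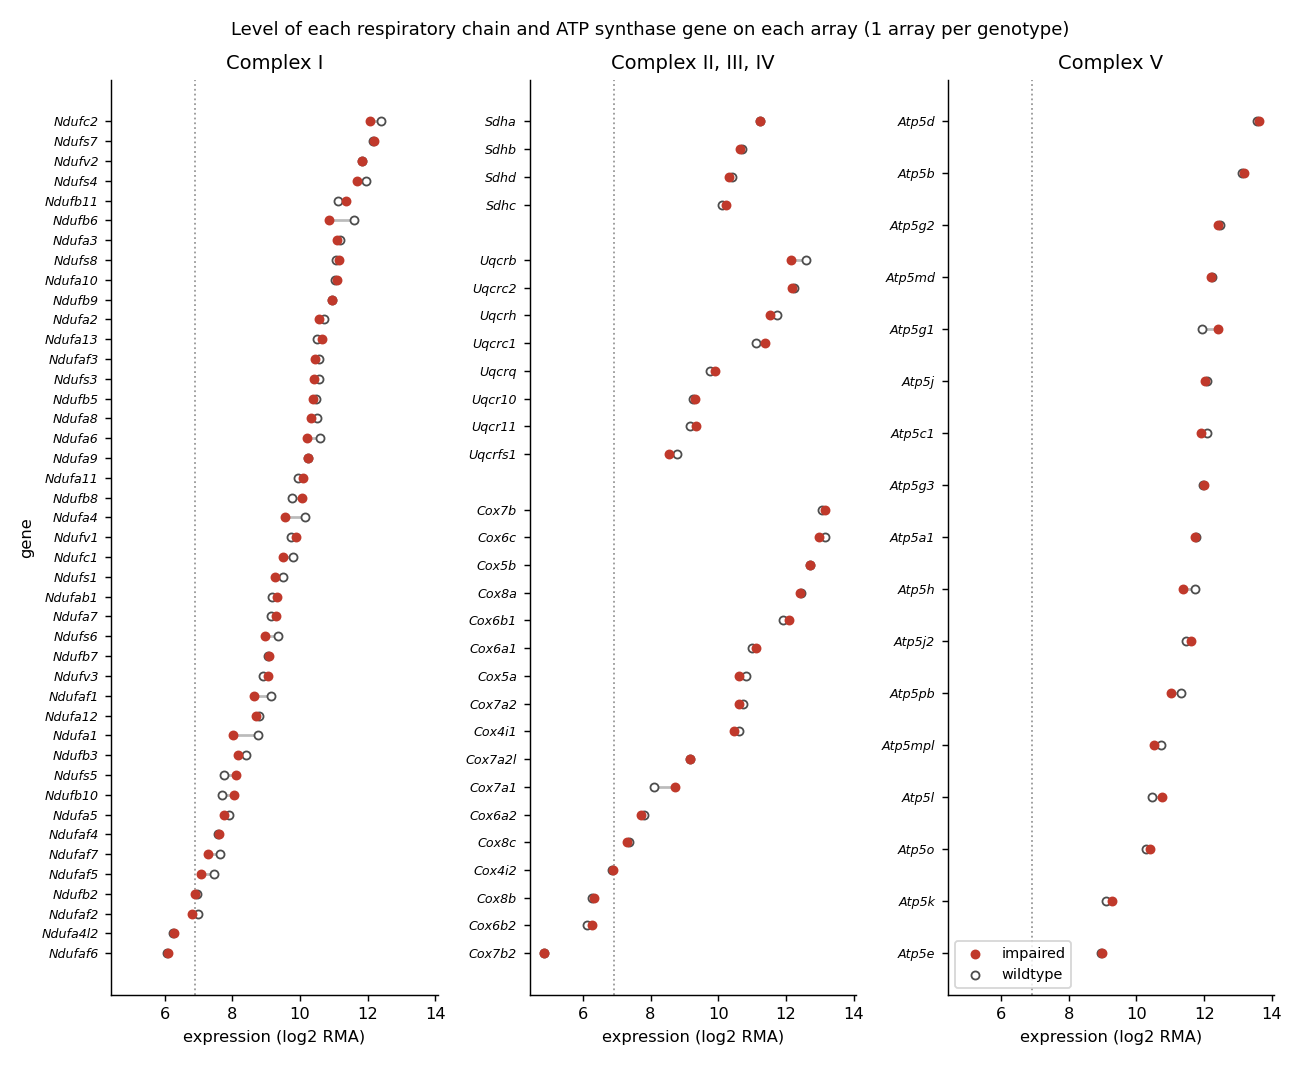
Level of each of the 89 genes (log2 RMA, x axis) in the impaired sample (filled red) and the wildtype sample (open), with genes ordered by signal within each complex and the floor of 6.91 dotted. Signals of different probe sets do not rank genes by transcript number; most pairs of points overlap, and Ndufb6, Ndufa1, Ndufa4 and Cox7a1 show the widest gaps.

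Below the floor lay 7 members, where signal may be mostly background. They were Cox4i2, Cox6b2, Cox7b2 and Cox8b, isoforms of complex IV known from lung, testis, heart or muscle, Ndufa4l2, a hypoxia-induced paralog of Ndufa4, and the complex I assembly factors Ndufaf2 and Ndufaf6. Their levels ran between 4.86 (Cox7b2) and 6.90 (Cox4i2) in the impaired sample and between 4.86 (Cox7b2) and 6.99 (Ndufaf2) in the wildtype sample. Their differences ran from -0.18 (Ndufaf2) to 0.14 (Cox6b2). Ndufb2, a small membrane-arm subunit of complex I at 6.89 in impaired and 6.95 in wildtype cells, was the member just inside the floor, and Ndufaf2, at 6.81 in impaired and 6.99 in wildtype cells, the one just outside.

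The 4 members past 1.5-fold were in complexes I and IV. The 250 bases before the transcription start of 3 of them, and of Sdha, whose levels matched between the samples, are given here as annotated by RefSeq on GRCm38.p6, so that promoters of genes that differed in either direction or hardly at all can be set side by side. Capitals mark matches, on either strand, to the binding motifs spelled out further on.
Ndufb6 (chr4:40279422-40279671, minus strand): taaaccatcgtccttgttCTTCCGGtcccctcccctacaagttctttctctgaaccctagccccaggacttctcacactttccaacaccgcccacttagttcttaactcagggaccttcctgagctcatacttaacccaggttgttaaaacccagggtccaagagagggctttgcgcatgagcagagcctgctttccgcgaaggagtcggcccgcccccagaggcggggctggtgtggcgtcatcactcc
Ndufa1 (chrX:37191239-37191488, minus strand): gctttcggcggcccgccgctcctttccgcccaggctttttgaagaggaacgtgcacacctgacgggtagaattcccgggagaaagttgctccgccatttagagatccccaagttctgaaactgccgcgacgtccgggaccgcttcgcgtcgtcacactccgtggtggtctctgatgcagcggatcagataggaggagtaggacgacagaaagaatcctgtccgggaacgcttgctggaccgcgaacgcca
Cox7a1 (chr7:30183921-30184170, plus strand): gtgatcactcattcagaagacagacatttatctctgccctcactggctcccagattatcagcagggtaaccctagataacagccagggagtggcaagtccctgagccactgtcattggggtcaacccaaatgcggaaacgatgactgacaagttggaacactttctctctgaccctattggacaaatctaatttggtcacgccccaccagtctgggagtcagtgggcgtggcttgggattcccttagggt
Sdha (chr13:74350241-74350490, minus strand): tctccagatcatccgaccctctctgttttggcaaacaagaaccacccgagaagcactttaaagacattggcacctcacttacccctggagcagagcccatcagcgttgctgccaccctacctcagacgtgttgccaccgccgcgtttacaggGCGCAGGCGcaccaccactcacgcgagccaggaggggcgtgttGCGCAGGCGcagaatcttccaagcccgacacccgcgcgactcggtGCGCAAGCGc

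Complex I, the NADH dehydrogenase, held the dimmest members. Ndufb6, an accessory subunit of the membrane arm, was at 10.87 in impaired and 11.59 in wildtype cells, a difference of -0.72, or 1.64-fold dimmer. Only 43 of the 10754 genes past the floor had a lower difference. Ndufa1, an X-linked accessory subunit needed for assembly of the complex, was at 8.03 in impaired and 8.75 in wildtype cells, also -0.72, with 44 genes lower. Ndufa4, named after complex I but now placed in complex IV, was at 9.56 in impaired and 10.16 in wildtype cells, a difference of -0.60, with 111 genes lower. Each of these 3 genes had 1 probe set, so no second measurement on the array bears on them.

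The core subunits of complex I, which bind the flavin, the iron-sulfur clusters or the quinone, did not share that pattern. Ndufv1, which binds NADH and the flavin, was at 9.88 in impaired and 9.74 in wildtype cells (0.14). Ndufv2, which carries an iron-sulfur cluster, was at 11.83 in impaired and 11.84 in wildtype cells (-0.02). Both were thus within 0.15 of equality. Ndufs1, the largest iron-sulfur subunit, was lowest of the core, at 9.25 in impaired and 9.50 in wildtype cells (-0.25). Ndufs3 stood at 10.42 in impaired and 10.58 in wildtype cells (-0.16), Ndufs7 at 12.19 in impaired and 12.17 in wildtype cells (0.02), and Ndufs8 at 11.16 in impaired and 11.05 in wildtype cells (0.11). Of these 6 core genes 3 were above 0 and 3 below, with a median of 0.0005, and 4 were above 0 after intensity centring.

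Accessory subunits, which surround the core and support its assembly and stability, spread over the widest range. Of 28 past the floor 13 were above 0 and 15 below, with a median of -0.06 and a range from -0.72 to 0.37. Besides Ndufb6 and Ndufa1, the lower end held Ndufs6 at 8.97 in impaired and 9.36 in wildtype cells (-0.40), Ndufa6 at 10.22 in impaired and 10.60 in wildtype cells (-0.38), and Ndufc2 at 12.08 in impaired and 12.38 in wildtype cells (-0.31). The upper end was formed by Ndufb10, at 8.06 in impaired and 7.69 in wildtype cells (0.37), Ndufs5, at 8.12 in impaired and 7.77 in wildtype cells (0.35), and Ndufb8, at 10.07 in impaired and 9.77 in wildtype cells (0.30). Ndufb6, Ndufb8 and Ndufb10 all belong to the distal membrane arm, so members of the same arm lay at opposite ends. Ndufab1, which also serves as the mitochondrial acyl carrier protein, was at 9.33 in impaired and 9.18 in wildtype cells (0.15). Ndufs4, which stabilises the NADH-oxidising module, was at 11.69 in impaired and 11.96 in wildtype cells (-0.27).

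Assembly factors of complex I, which help build it but are not part of the finished enzyme, had a lower median than its subunits. Ndufaf1, a component of the intermediate assembly complex, was at 8.63 in impaired and 9.13 in wildtype cells (-0.50), the member nearest to 1.5-fold without reaching it. Ndufaf5, a hydroxylase acting on Ndufs7 in human cells, was at 7.08 in impaired and 7.47 in wildtype cells (-0.40), and Ndufaf7, a methyltransferase, at 7.28 in impaired and 7.63 in wildtype cells (-0.36). Ndufaf3 and Ndufaf4, which act in an early step, differed by -0.12 and 0.03. Of the 5 factors past the floor 4 were below 0, with a median of -0.36, beside -0.05 for the 35 genes of complex I subunits and Ndufa4. After intensity centring all 5 were below 0, Ndufaf4 only by -0.002, beside 4962 of the 10754 genes past the floor. Of the 5, 3 had levels under 8 in both samples, where single probe sets are least certain.

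**Figure D2:**
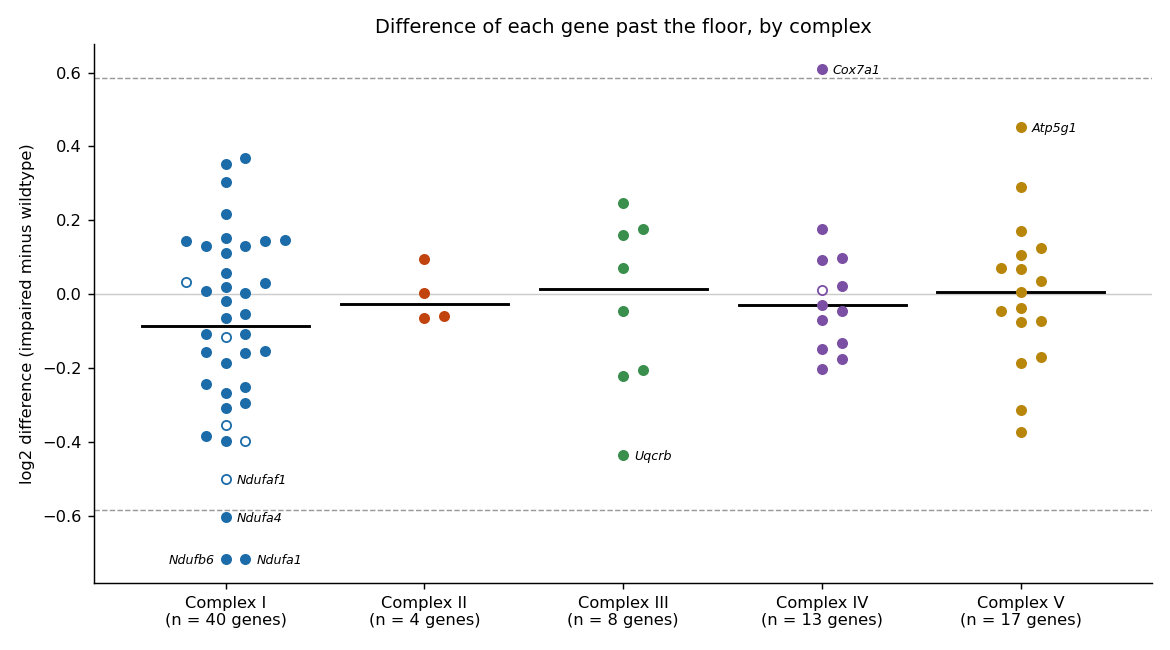
Log2 difference (impaired minus wildtype, y axis) of the 82 genes past the floor, by complex. Open points are assembly or supercomplex factors, black lines are medians and dashed lines mark 1.5-fold; the median of complex I (-0.09) is the lowest and complex II spans the narrowest range.

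Complex II, succinate dehydrogenase, links the citric acid cycle to the chain and was the most even of the 5 complexes by range. Sdha, the flavoprotein that oxidises succinate, was at 11.24 in impaired and 11.23 in wildtype cells (0.004). Sdhb, the iron-sulfur subunit, was at 10.64 in impaired and 10.70 in wildtype cells (-0.06). Sdhc and Sdhd, the membrane anchors that bind quinone, were at 10.22 and 10.33 in the impaired sample, against 10.12 and 10.39 in the wildtype sample (0.10 and -0.06). All 4 differences lay between -0.06 and 0.10, but a set of 4 has less room for a wide range than one of 40.

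Complex III, the cytochrome bc1 complex, had differences of both signs, 4 above 0 and 4 below (median 0.01). Uqcrb, an accessory subunit that binds next to the quinone site, was its lowest gene, at 12.15 in impaired and 12.58 in wildtype cells (-0.44). Its other 2 probe sets gave -0.53 and -0.40, so all 3 were below 0. Uqcrc1, a core subunit related to processing peptidases, was its highest, at 11.37 in impaired and 11.13 in wildtype cells (0.25). Uqcrc2, the partner of Uqcrc1, was at 12.19 in impaired and 12.23 in wildtype cells (-0.05), and Uqcrfs1, the Rieske iron-sulfur protein, at 8.55 in impaired and 8.78 in wildtype cells (-0.22). The core subunits therefore did not share a direction. Among the small accessory subunits, Uqcrh, which docks cytochrome c, stood at 11.54 in impaired and 11.74 in wildtype cells (-0.20), and Uqcr11, Uqcrq and Uqcr10 differed by 0.18, 0.16 and 0.07.

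Complex IV, cytochrome c oxidase, was close to equal in its general subunits. Of the 9 genes for them, 4 were above 0 and 5 below, all within a range of -0.20 to 0.18 (median -0.03, and 0.01 after intensity centring). Cox4i1, the subunit through which ATP is known to regulate the enzyme, was at 10.47 in impaired and 10.62 in wildtype cells (-0.15). Cox5a was the lowest, at 10.61 in impaired and 10.81 in wildtype cells (-0.20), and Cox6b1, which lies on the cytochrome c side, the highest, at 12.10 in impaired and 11.93 in wildtype cells (0.18). Cox6c was at 12.98 in impaired and 13.16 in wildtype cells (-0.18), Cox5b, which binds zinc, at 12.72 in impaired and 12.70 in wildtype cells (0.02), and Cox7b, which is X-linked, at 13.17 in impaired and 13.07 in wildtype cells (0.10). Cox7a2l, which helps to join complexes III and IV into supercomplexes, was at 9.17 in impaired and 9.16 in wildtype cells (0.01), while its second probe set gave -0.19.

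Tissue isoforms of complex IV held the brightest difference of all 89 genes. Cox7a1, the isoform typical of heart and skeletal muscle, was at 8.71 in impaired and 8.10 in wildtype cells, a difference of 0.61, or 1.53-fold brighter. Of all genes past the floor 545 (5.07%) had a higher one. Cox7a2, the isoform found in most tissues, was at 10.61 in impaired and 10.74 in wildtype cells (-0.13). Cox6a2, another muscle isoform, was at 7.73 in impaired and 7.80 in wildtype cells (-0.07), and Cox8b, below the floor, gives no measure of direction. Cox8c, known from testis, differed by -0.05. Of 12 striated and smooth muscle genes measured, 4 passed the floor and all 4 were above 0 (median 0.13), led by Acta2, the actin of smooth muscle, at 7.31 in impaired and 6.71 in wildtype cells (0.60). Of all 12, whether past the floor or not, 11 were above 0 and 1 below, but those below the floor give no measure of direction. Among all genes, 49.4% were above 0 past the floor and 51.5% without a floor. The summed linear signal of the 12 was 1279 in the impaired sample and 1113 in the wildtype sample; its part in the Cox7a1 difference was not tested.

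Complex V, the ATP synthase, is taken here by the parts of the enzyme. The head and central stalk, where ATP is made, were even: Atp5b, the catalytic beta chain, was at 13.17 in impaired and 13.11 in wildtype cells (0.07). Atp5a1, the alpha chain, was at 11.72 in impaired and 11.76 in wildtype cells (-0.04), and Atp5c1, the gamma chain that turns within the head, at 11.91 in impaired and 12.08 in wildtype cells (-0.17). With Atp5d (0.07) and Atp5e (0.005), all 5 lay within 0.2. The peripheral stalk, which holds the head still, was lower: Atp5h was at 11.37 in impaired and 11.74 in wildtype cells (-0.37). Atp5pb, the b subunit of the same stalk, was at 11.01 in impaired and 11.32 in wildtype cells (-0.31), Atp5j differed by -0.07 and Atp5o by 0.11. Of these 4, 3 were thus below 0, with a median of -0.19, and -0.14 after intensity centring.

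The membrane ring of the ATP synthase is built from identical c subunits that 3 genes encode with different leader peptides. Atp5g1, whose expression is known to vary most with demand, was at 12.40 in impaired and 11.95 in wildtype cells (0.45), the largest difference within complex V, and 8.02% of all genes were higher. Atp5g2 was at 12.40 in impaired and 12.47 in wildtype cells (-0.08), and Atp5g3 at 12.01 in impaired and 11.97 in wildtype cells (0.04), but the Atp5g2 value depended on the probe set: its other 2, both past the floor, gave -0.21 and 0.35. Of the other membrane subunits, Atp5l was at 10.76 in impaired and 10.47 in wildtype cells (0.29), Atp5k at 9.28 in impaired and 9.11 in wildtype cells (0.17), and Atp5mpl at 10.53 in impaired and 10.71 in wildtype cells (-0.19). The Atp5l value depended on the probe set too: its 5 ran from -0.21 to 0.29, with 2 above 0 and 3 below.

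**Figure D3:**
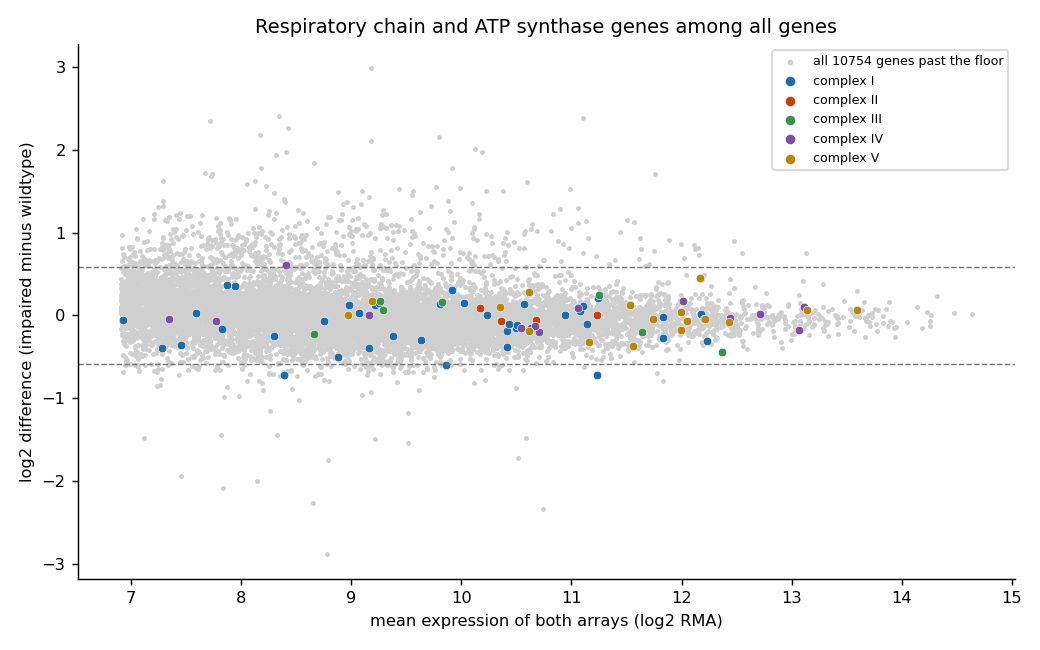
Log2 difference (impaired minus wildtype, y axis) against the mean level of both samples (x axis) for all 10754 genes past the floor (grey) and the 82 respiratory chain and ATP synthase genes (coloured by complex). The coloured points stay within -0.72 to 0.61 while grey points reach -2.88 and 2.98; dashed lines mark 1.5-fold.

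Setting the complexes side by side, the median difference was -0.09 for complex I (40 genes), -0.03 for complex II (4), 0.01 for complex III (8), -0.03 for complex IV (13) and 0.005 for complex V (17). All 5 medians lay within 0.1 of the -0.002 of all genes. Intensity centring moved them to -0.05, 0.03, 0.06, 0.01 and 0.05 in the same order, so the medians of complexes II and IV changed sign. Complex I alone stayed below 0 under all 7 alternatives tried for it, between -0.08 and -0.05. Its 23 genes below 0 were 57.5% of its 40, beside 50.2% of all genes past the floor. They and its 17 above 0 kept those numbers after centring, beside 4962 of all 10754 genes below 0. Among genes as bright as most members, those past the 75th percentile of probe sets (8.86), the median was -0.01 for 68 members and -0.05 for all 5618 genes, so the slight shift below 0 was no larger in the members than in bright genes at large. At that floor the median of complex I was -0.0635, close to the -0.0525 of all 5618 genes, of which 59.8% were below 0.

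Members with several probe sets give a view of the error within an array. Of the 89 genes 17 had more than 1. Whether some of these lie on pseudogenes or near-identical copies is not known without the probe sequences, so they may not measure the same transcript. In the 16 with at least 2 past the floor, the gap between the highest and lowest difference had a median of 0.12, beside 0.19 for 563 such genes in all. All probe sets of a gene had the same sign in 11 of the 16 (68.8%), beside 65.2% of all such genes. Uqcrb, Atp5h, Atp5pb, Ndufc1 and Cox6c were below 0 in every probe set, and Uqcr11, Ndufa11, Ndufab1, Ndufb11, Cox7b and Cox5b above 0 in every one. Both probe sets of Atp5g1 were above 0 (0.45 and 0.33), but the second lay below the floor. Ndufs3, Atp5g2, Atp5l, Atp5md and Cox7a2l held both signs. The 90th percentile of the gap was 0.46 for the members and 0.54 for all such genes, and the widest gaps among the members were 0.56 for Atp5g2, 0.50 for Atp5l and 0.42 for Ndufs3. Most of the differences given above for single genes are smaller than this 90th percentile of 0.46, but many are larger than the median gap of 0.12.

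**Figure D4:**
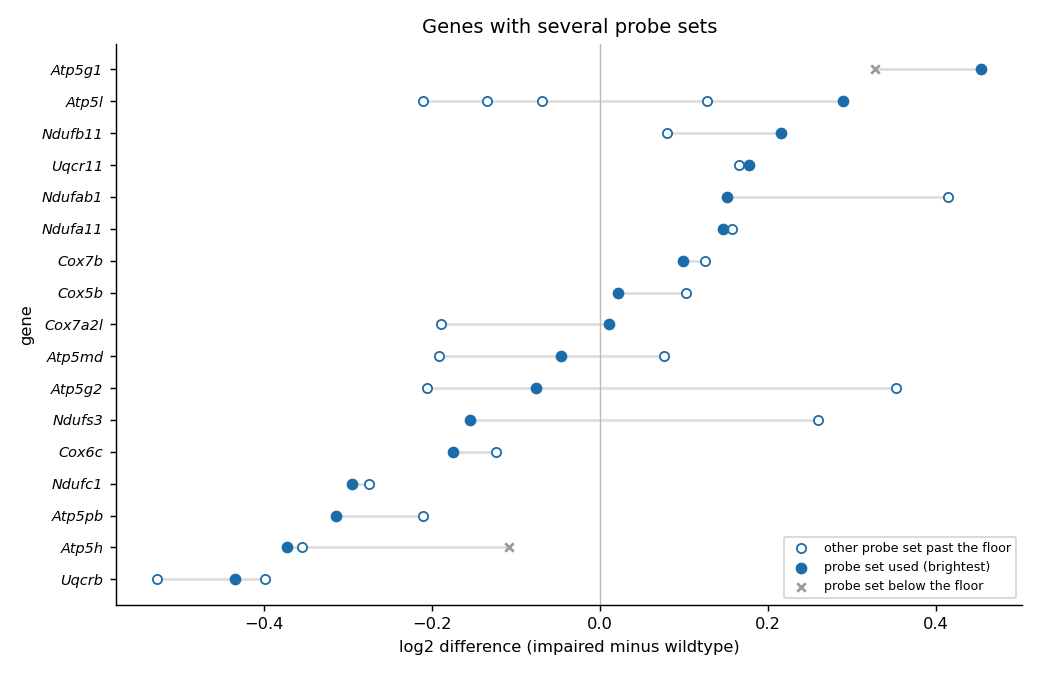
Log2 difference (impaired minus wildtype, x axis) of every probe set of the 17 genes with more than 1. Filled points are the probe sets used, open points others past the floor and crosses those below it; the probe sets of Uqcrb lie between -0.53 and -0.40, while those of Atp5l run from -0.21 to 0.29.

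Other genes of mitochondrial function came from lists written for this comparison. Of 34 assembly factors not covered by the symbols, 12 were above 0 and 22 below, with a median of -0.10. Of them 0 were past 1.5-fold, beside 6.81% of all genes past the floor. Tmem70, which assembles the c ring of the ATP synthase, was at 8.26 in impaired and 8.72 in wildtype cells (-0.46), Coa5, a complex IV factor, at 10.03 in impaired and 10.42 in wildtype cells (-0.39), and Uqcc1, a complex III factor, at 8.07 in impaired and 8.46 in wildtype cells (-0.39). Of 77 genes with the symbol Mrpl or Mrps and a digit, given to mitochondrial ribosomal proteins, 28 were above 0 and 49 below. Their median was -0.10, and -0.06 after intensity centring, with 34 then above 0 and 43 below. The lowest were Mrps36 (-0.68), named after the ribosome but now placed in the 2-oxoglutarate dehydrogenase complex, and Mrpl18 (-0.66). The 52 cytoplasmic ribosomal protein genes past the floor had a median of -0.10 (-0.04 after intensity centring), with 15 above 0 and 37 below. After centring these counts were 21 and 31, and those of the 34 assembly factors stayed at 12 and 22. Beside these lists, 50.2% of all genes past the floor were below 0, and 59.8% of the 5618 genes past 8.86. After centring, 5792 of all 10754 genes past the floor were above 0 and 4962 below.

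Among genes for the expression of mitochondrial DNA, 3 were dimmer by more than any subunit gene save Ndufb6 and Ndufa1. Tfb2m, a transcription factor that opens mitochondrial promoters, was at 8.72 in impaired and 9.64 in wildtype cells (-0.92, or 1.89-fold dimmer). Mterf3, a repressor of mitochondrial transcription, was at 8.81 in impaired and 9.48 in wildtype cells (-0.67), and Tfam, which packages and transcribes mitochondrial DNA, at 7.94 in impaired and 8.55 in wildtype cells (-0.61). These 3 were past 1.5-fold, and 0 were brighter by as much, among 17 of the list past the floor with 6 above 0 and 11 below (median -0.11). Of all genes past the floor 1.26% were dimmer and 5.55% brighter by 1.5-fold, and 50.2% were below 0. Below the floor, Ppargc1a, a coactivator of mitochondrial biogenesis chosen after its value was seen, was at 7.12 in impaired and 6.41 in wildtype cells (0.72). Lying below the floor, it gives no measure of direction. Polrmt, the mitochondrial RNA polymerase, chosen after its value was seen, was at 8.82 in impaired and 8.53 in wildtype cells (0.29), so the partners of this machinery did not share a direction. Of the nuclear regulators of respiratory genes, also chosen after their values were seen, Nrf1 differed by -0.24, Gabpa by -0.11 and Esrra by 0.56. Of the 13 subunits of complexes I, III, IV and V made from mitochondrial DNA itself, 0 were found under the symbols searched. Their transcripts were therefore not analysed here.

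Fuel supply and electron carriers were nearer to 0. Cycs, cytochrome c, which carries electrons from complex III to complex IV, was at 12.60 in impaired and 12.56 in wildtype cells (0.03, chosen after its value was seen). The 14 carrier and coenzyme Q genes had a median of 0.04, with Coq3 lowest (-0.46) and Coq8a highest (0.39). The 17 genes of the citric acid cycle and pyruvate dehydrogenase also had a median of 0.04, with Idh2 at 9.18 in impaired and 8.63 in wildtype cells (0.54), Mdh2 at 12.64 in impaired and 12.31 in wildtype cells (0.33), and Sucla2 at 9.14 in impaired and 9.49 in wildtype cells (-0.35). The 9 genes of inner membrane exchange and outer membrane channels had a median of -0.05, with Vdac2 and Vdac3 both at -0.40. The 13 glycolysis genes had a median of 0.02, led by Pgam1 (0.49). The medians of glycolysis and of the respiratory chain were both within 0.05 of 0.

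**Figure D5:**
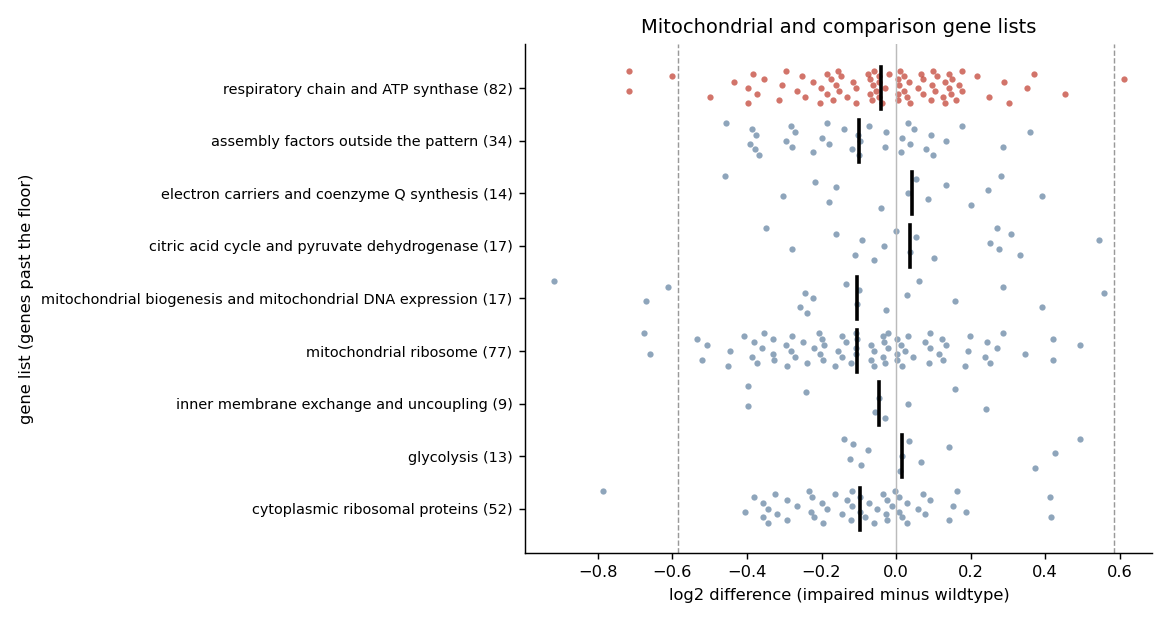
Log2 difference (impaired minus wildtype, x axis) of each gene past the floor in the respiratory chain and ATP synthase set (red) and 8 other lists (blue), with the number of genes in brackets, medians as black bars and 1.5-fold dashed. All medians lie between -0.11 and 0.04, and Tfb2m at -0.92 is the lowest single gene.

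The promoters of the members were compared with those of other genes. RefSeq windows of 300 bases, 250 before and 50 after the start, were at hand for 73 of the 89 genes. They held a median of 19.5 CG pairs (2 to 43), beside 20 for genes past the floor and 7.0 over all 32851 windows. Cox7a1 held 7 CG pairs, beside 29 for Ndufa1, 25 for Sdha and 17 for Ndufb6. Matches were counted on both strands. The NRF1 motif GCGCANGCG was found in 21 of the 73 genes (28.8%), against 15.5% of 8617 genes past the floor and 6.25% of all windows. The motif CCGGAAG of ETS factors such as GABP was found in 18 (24.7%), against 20.8% and 8.86%, and the YY1 motif AAGATGGCG in 7 (9.59%), against 3.73% and 1.40%. The median difference was 0.03 with the NRF1 motif and -0.02 without it, and -0.04 with CCGGAAG and 0.004 without it. For YY1 it was -0.07 in the 7 genes with the motif and 0.0045 in the 62 past the floor without it. The window and the NRF1 motif were settled after other settings had been searched and their counts seen. With the 250 bases before the start and an NRF1 motif longer by 1 base, which were searched first, the shares of the 73 genes were 17.8% for NRF1, 17.8% for CCGGAAG and 1.37% for YY1, against 9.60%, 16.2% and 1.43% of genes past the floor. The YY1 share was thus above that of genes past the floor only where the 50 bases after the start were counted. The order of the NRF1 medians turned: with the longer motif in 300 bases it was -0.03 with a match and 0.004 without, so no direction is read from it.

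Of the sequences printed above, Sdha had 3 NRF1 matches, the nearest beginning 10 bases before the start, and its difference was 0.004. Ndufb6 had a single CCGGAAG match on the opposite strand, 232 bases before the start, and Ndufa1 and Cox7a1 had none of the motifs in the stretch shown. The motifs of ERR (TCAAGGTCA), STAT factors (TTCCNGGAA) and the TATA box (TATAAA) were found in 2, 1 and 8 of the 73 genes (2.74%, 1.37% and 11.0%), against 0.325%, 1.59% and 8.99% of genes past the floor and 0.423%, 1.15% and 13.6% of all windows. The STAT letters were in the window of Ndufa8, at 10.32 in impaired and 10.51 in wildtype cells (-0.19). By position, 3 members past the floor lie on the X chromosome, and they did not move alike: Ndufa1 differed by -0.72, Cox7b by 0.10 and Ndufb11 by 0.22.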

How the data were processed

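RNA of 2 TR1 cell samples was hybridised to 1 Affymetrix array each. The authors deposited log2 expression values for 34760 probe sets, made with affy and RMA per the submitters' processing notes; the sources used here give no versions. RMA equalises the distributions of the arrays, so a shift of all genes cannot be seen, and it compresses differences of dim probe sets.

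Probe sets were named by GEO's platform annotation: 21640 had 1 symbol and were used, 1321 had several and 11799 were not listed. The symbols took 113 probe sets, and 6 more shared with another gene were left out. All 89 genes matched RefSeq by Entrez identifier. A gene was represented by its brightest probe set. The members and lists were chosen with earlier results of these data known. Any member could be named; values of both samples were given for core subunits, the extremes of each complex, members past 1.5-fold and tissue isoforms, and for up to 3 genes with the largest differences of each other list. With 1 array per genotype no test was possible; the number of arrays limits the precision. Alternatives were loess centring (span 0.3), an offset of 32, averaged probe sets, other floors, subunits only and a 2-fold rule. Python 3.11.15, numpy 2.4.6, pandas 2.3.3, statsmodels 0.14.6 and matplotlib 3.10.9 were used. Promoter motifs were searched in RefSeq windows, and the window and the NRF1 motif were changed after their counts had been seen.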

Additional observations from a re-analysis of the deposited data

How the results depend on the processing

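The median over all members stayed within 0.05 of its value of -0.04 under every alternative, between -0.04 with the offset of 32 and 0.001 after loess centring. Of the 82 members past the floor, 76 kept their sign after loess centring, 82 with the offset and 79 with probe sets averaged. The number past 1.5-fold was 4; it was 2 with the offset, where Ndufa4 (-0.58) and Cox7a1 (0.56) came short, 2 with the floor at the 75th percentile, which leaves out Ndufa1 and Cox7a1 as too dim, and 0 by a 2-fold rule. After loess centring it was 3, without Ndufa4 (-0.54). The median of complex II became 0.031 with loess centring, and that of complex III 0.071 with the higher floor; these rest on few genes and the cause was not tested. Counting Ndufa4 and Ndufa4l2 in complex IV was tried after seeing the data and gave medians of -0.06 for complex I and -0.04 for complex IV. In the promoters, the median difference with minus without the NRF1 motif was 0.058; under other settings it was -0.0335 with the motif 1 base longer, -0.0335 with the motif as given in the 250 bases before the start, and -0.0675 with both, the setting searched first; the cause was not tested. No paired analysis was possible because each genotype had 1 array. No scanner files were used, so background correction and normalization could not be varied.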
